A study of Canis lupus with 20 samples.

Results

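TAGLN, ACTA2, MYH11 and CNN1 are the classical contractile markers of smooth muscle, and their transcripts were followed in the left heart of dogs 12 weeks after removal of the right kidney or a sham operation. They were read from 10 of the 43035 probe sets of an Affymetrix canine array, namely every probe set that the platform annotation pairs with one of these symbols and no other. The 4 genes stand among 15115 with a probe set of a single symbol. TAGLN had 3 such probe sets, ACTA2 had 1, MYH11 had 4 and CNN1 had 2, and 9 of the 10 were bright enough to be tested. The 20 arrays form 4 groups of 5, which are uninephrectomized left atrium, sham left atrium, uninephrectomized left ventricle and sham left ventricle. The labels call the animals normal dogs, and no breed, sex or age was in the labels used here. Each operation was given to 6 dogs according to the design, and 5 samples of each chamber and operation were hybridised, without replicate arrays. The labels do not say which atrial and ventricular arrays came from one dog.

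Smooth muscle cells contract when myosin filaments pull on actin filaments. ACTA2 encodes the smooth muscle alpha actin of the thin filament, and MYH11 the myosin heavy chain that is the motor. TAGLN (transgelin) and CNN1 (calponin 1) are actin-binding proteins of the same filaments, and calponin also restrains the myosin ATPase. All of these genes are known targets of serum response factor and its coactivator myocardin. In heart tissue they mark the muscle layer of coronary vessels, and ACTA2 and TAGLN are also made by activated fibroblasts. Each array measured a whole piece of tissue, so more cells of a type and more RNA per cell cannot be told apart.

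The tissue matched its labels. Of the cardiomyocyte transcripts, the troponin gene TNNT2 had group means from 14.0 to 14.3 on the log2 scale. The ventricular light chain gene MYL2 averaged 4.72 in uninephrectomized atria and 14.55 in uninephrectomized ventricles, and 3.81 in sham atria and 14.66 in sham ventricles. Array medians lay between 2.33 and 2.39. RNA quality was followed by how far the 3' probe sets of control transcripts outshone their middle and 5' ones. This 3' gap averaged 3.92 ± 0.40 in uninephrectomized atria and 4.15 ± 0.21 in sham atria (log2, SD, n = 5 each). In the ventricle it averaged 3.42 ± 0.36 in uninephrectomized and 3.90 ± 0.40 in sham dogs. Signals below are log2 values as deposited, and a probe set was called when its Benjamini-Hochberg adjusted p in limma, over 30047 tested probe sets, was under 0.05. Differences are given ± standard error with n = 5 arrays per group, and fold changes are powers of 2 of these differences.

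At their brightest probe sets all 4 genes had higher mean signals in the atrium than in the ventricle, in uninephrectomized as in sham dogs. TAGLN had the largest difference of the 4. In uninephrectomized dogs 7 of the 9 tested probe sets were called higher in the atrium and 0 lower, where 14.7% of all tested probe sets were called higher and 12.5% lower. In sham dogs 5 of 9 were called higher and 0 lower, where 11.2% of all were called higher and 9.62% lower. Arrays of the chambers did not overlap for 6 of 9 probe sets in uninephrectomized dogs, all higher, against 11.4% of all probe sets higher and 9.57% lower. In sham dogs they did not overlap for 4 of 9, all higher, against 7.59% of all higher and 6.67% lower. No probe set of the 4 genes was called between uninephrectomized and sham dogs in either chamber, and the groups overlapped for all 9. Groups not overlapping made up 0.436% of all probe sets on the higher and 0.493% on the lower side in the atrium, and 0.396% and 0.596% in the ventricle.

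**Figure D1:**
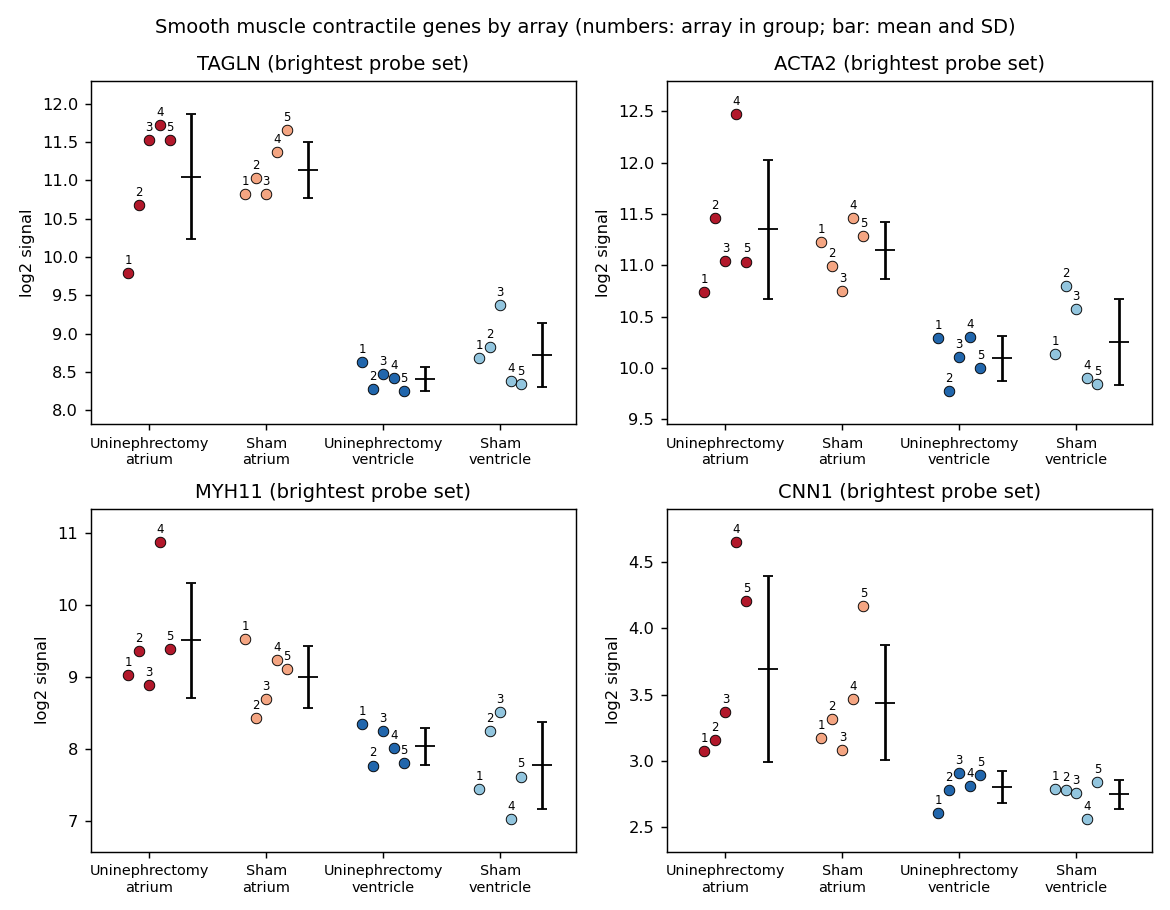
Log2 signal of the brightest probe set of TAGLN, ACTA2, MYH11 and CNN1 on the vertical axes, with 1 numbered point for each of the 20 arrays and a bar for the mean and SD of each group of 5. All 10 atrial arrays lie above all 10 ventricular arrays for TAGLN, from 9.79 upward in the atrium, and uninephrectomized atrial array 4 is the highest array for each gene.

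The brightest TAGLN probe set gave 9.79, 10.68, 11.53, 11.73 and 11.53 in the 5 uninephrectomized atria and 10.82, 11.03, 10.82, 11.37 and 11.66 in the 5 sham atria. In the ventricle it gave 8.63, 8.27, 8.47, 8.43 and 8.25 in uninephrectomized and 8.68, 8.83, 9.38, 8.38 and 8.34 in sham dogs. Every atrial array was above every ventricular array, and the surgery groups overlapped within each chamber. In uninephrectomized dogs the atrium was 6.23-fold higher than the ventricle (log2 difference 2.64 ± 0.30, adjusted p = 2.72e-06). In sham dogs it was 5.34-fold higher (2.42 ± 0.30, adjusted p = 9.74e-06). Among 11423 genes, each taken at its brightest probe set, TAGLN ranked 91 by this difference in uninephrectomized and 85 in sham dogs. The order of the group means was sham atrium, uninephrectomized atrium, sham ventricle, uninephrectomized ventricle, and the neighbours within a chamber were not called different.

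The other TAGLN probe sets showed a wider gap between the chambers. The second averaged 7.67 ± 1.13 in the atrium and 3.63 ± 0.23 in the ventricle of uninephrectomized dogs (SD, n = 5 each), a 16.5-fold difference (4.04 ± 0.39, adjusted p = 3.98e-07). In sham dogs it averaged 7.91 ± 0.53 in the atrium and 3.71 ± 0.32 in the ventricle, an 18.4-fold difference (4.20 ± 0.39, adjusted p = 3.12e-07). The third averaged 6.76 ± 1.40 in the atrium and 3.24 ± 0.17 in the ventricle of uninephrectomized dogs, an 11.4-fold difference (3.52 ± 0.47, adjusted p = 2.14e-05). In sham dogs it averaged 7.01 ± 0.73 and 3.22 ± 0.22 in the same order, a 13.8-fold difference (3.78 ± 0.47, adjusted p = 1.29e-05). For both, every atrial array was above every ventricular one. All 3 probe sets gave the same direction, and the size of the difference depended on the probe set. The ventricular means of these probe sets lay between 3.22 and 3.71, near the low end of the scale, where the background handling, not given in the sources used here, bears on the size of a fold.

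ACTA2 was read by a single probe set. It gave 10.74, 11.46, 11.04, 12.47 and 11.04 in uninephrectomized atria and 11.23, 10.99, 10.75, 11.46 and 11.29 in sham atria. In the ventricle it gave 10.29, 9.78, 10.11, 10.30 and 10 in uninephrectomized and 10.14, 10.80, 10.57, 9.91 and 9.84 in sham dogs. The chambers did not overlap in uninephrectomized dogs, whereas sham ventricular array 2 lay just above sham atrial array 3. The atrium was 2.39-fold higher in uninephrectomized dogs (1.26 ± 0.26, adjusted p = 0.00125) and 1.86-fold higher in sham dogs (0.90 ± 0.26, adjusted p = 0.0181). Without sham ventricular array 5 the sham difference was 0.79 ± 0.27 and no longer called (adjusted p = 0.0529). The means ran from uninephrectomized atrium through sham atrium and sham ventricle to uninephrectomized ventricle, again with no call between neighbours of one chamber.

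ACTA2 belongs to a family of near-identical actins, and how far its probe set also reads the others was not tested. The skeletal alpha actin gene ACTA1 was lower in the atrium, at 13.83 in the atrium and 14.48 in the ventricle of uninephrectomized dogs (-0.65 ± 0.17, adjusted p = 0.00775). In sham dogs ACTA1 stood at 13.28 in the atrium and 14.52 in the ventricle (-1.24 ± 0.17, adjusted p = 3.62e-05). ACTC1, the cardiac alpha actin, differed by 0.10 ± 0.08 in uninephrectomized and 0.07 ± 0.08 in sham dogs and was not called. ACTG2, the enteric smooth muscle actin, differed by 0.98 ± 0.51 and 0.38 ± 0.51 in the same order and was not called. ACTG1, a cytoplasmic actin, was higher in the atrium by 0.56 ± 0.18 in uninephrectomized and 0.53 ± 0.18 in sham dogs (adjusted p = 0.0282 and 0.0441).

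The brightest MYH11 probe set gave 9.03, 9.37, 8.89, 10.88 and 9.39 in uninephrectomized atria and 9.53, 8.44, 8.69, 9.24 and 9.11 in sham atria. In the ventricle it gave 8.35, 7.77, 8.25, 8.02 and 7.81 in uninephrectomized and 7.45, 8.26, 8.52, 7.04 and 7.62 in sham dogs. The chambers separated completely in uninephrectomized dogs, and in sham dogs sham ventricular array 3 alone exceeded the lowest atrial array. The atrium was 2.78-fold higher in uninephrectomized dogs (1.47 ± 0.33, adjusted p = 0.00249) and 2.34-fold higher in sham dogs (1.23 ± 0.33, adjusted p = 0.0119). The order of means was uninephrectomized atrium, sham atrium, uninephrectomized ventricle, sham ventricle, with no call between the surgery groups of a chamber.

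The MYH11 probe sets disagreed with one another. The second brightest averaged 6.58 ± 0.72 in uninephrectomized atria, 5.76 ± 1.04 in sham atria, 5.09 ± 0.77 in uninephrectomized ventricles and 4.56 ± 0.32 in sham ventricles (SD, n = 5 each), and its chambers overlapped in both surgery groups. Its difference between the chambers was 1.48 ± 0.45 in uninephrectomized dogs (adjusted p = 0.0182) and 1.20 ± 0.45 in sham dogs, where it was not called (adjusted p = 0.0638). Its call in uninephrectomized dogs was lost without uninephrectomized atrial array 4 (adjusted p = 0.0549) or uninephrectomized ventricular array 2 (0.0544). It was also lost with arrays of equal number as a fixed block (adjusted p = 0.0558). The other probe sets were dim, with all arrays between 1.98 and 2.98, and were not called in either direction. Their atrial means were lower, with differences of -0.09 and -0.17 in uninephrectomized dogs and -0.18 and -0.11 in sham dogs. Exact two-sided permutation gave p = 0.595 and 0.135 in uninephrectomized dogs and 0.0238 for each in sham dogs. With all 4 averaged as one value, the sham difference was 0.53 ± 0.21 and not called (adjusted p = 0.0770). Of the other myosin heavy chains, MYH7 of slow and ventricular muscle was lower in the atrium, at -0.80 ± 0.10 in uninephrectomized and -0.68 ± 0.10 in sham dogs (adjusted p = 7.54e-06 and 5.48e-05).

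CNN1 gave weak signals. Its brighter probe set gave 3.07, 3.16, 3.37, 4.65 and 4.21 in uninephrectomized atria and 3.17, 3.31, 3.08, 3.46 and 4.17 in sham atria. In the ventricle it gave 2.61, 2.78, 2.91, 2.81 and 2.90 in uninephrectomized and 2.79, 2.78, 2.76, 2.57 and 2.84 in sham dogs. Every atrial array was above every ventricular array, by little in most arrays and by more in uninephrectomized atrial arrays 4 and 5 and sham atrial array 5. The atrium was 1.85-fold higher in uninephrectomized dogs (0.89 ± 0.25, adjusted p = 0.0116), a call lost with the 3' gap as a covariate (0.69 ± 0.28, adjusted p = 0.0755). In sham dogs it was 1.62-fold higher and just missed the threshold (0.69 ± 0.25, adjusted p = 0.0552). With the sham arrays paired by their number as a block, the same difference was called (0.69 ± 0.15, adjusted p = 0.0218). As the mean of both CNN1 probe sets the difference was 0.47 ± 0.15 in uninephrectomized dogs (adjusted p = 0.0277) and 0.34 ± 0.15 in sham dogs, where it was not called (adjusted p = 0.126). The other CNN1 probe set lay between 1.52 and 2.18 on all arrays, below the filter, with means of 1.84 in uninephrectomized atria, 1.77 in sham atria, 1.79 in uninephrectomized ventricles and 1.78 in sham ventricles.

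**Figure D2:**
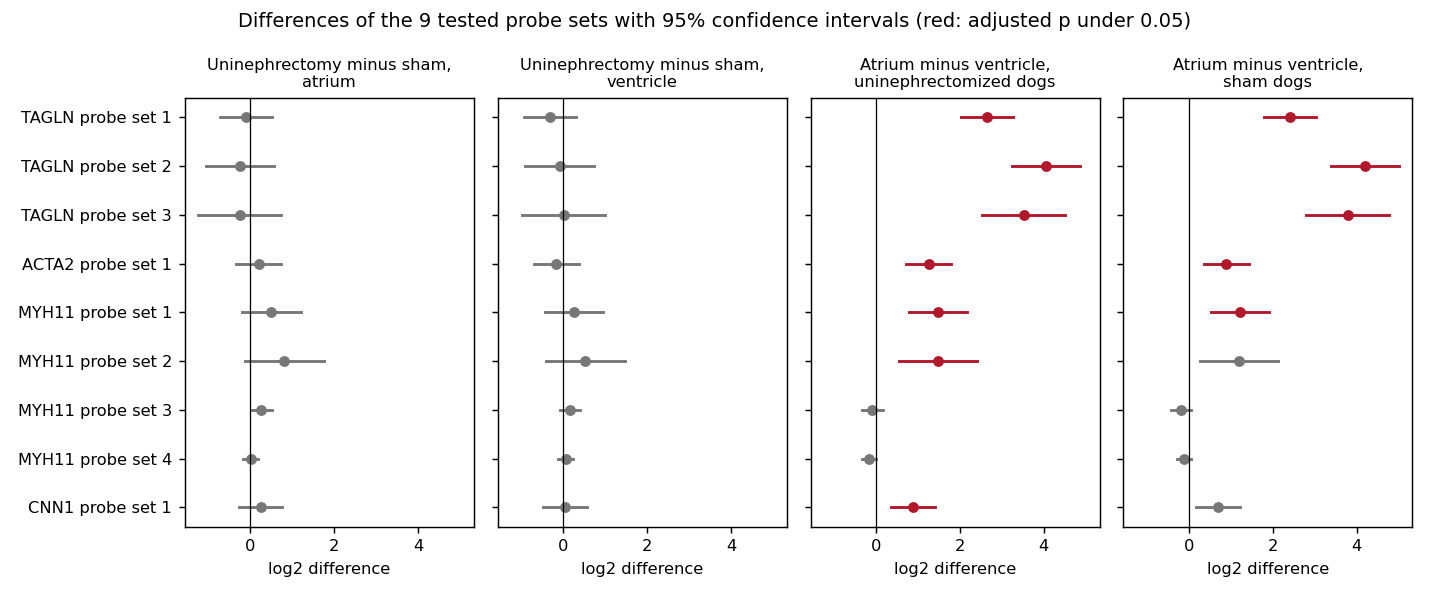
Log2 differences with 95% confidence intervals on the horizontal axes for the 9 tested probe sets of TAGLN, ACTA2, MYH11 and CNN1, numbered from bright to dim within a gene, in 4 comparisons. Red marks an adjusted p under 0.05, and there are 7 red points for atrium minus ventricle in uninephrectomized dogs, 5 in sham dogs and 0 for uninephrectomy minus sham.

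At the brightest probe sets, TAGLN had a larger mean difference between the chambers than ACTA2 and MYH11 on the same uninephrectomized arrays. Probe sets of the same gene gave differences of unlike size. How far the order of the genes rests on the response of their probe sets was not tested. The difference of log2 signals of 2 genes was taken within each array and compared between chambers by an exact two-sided permutation test, for 12 comparisons in all. For TAGLN against ACTA2 the atrial value exceeded the ventricular one by 1.38 in uninephrectomized and 1.52 in sham dogs, with no overlap of the chambers in either (exact p = 0.00794, the smallest possible, adjusted p = 0.0190). Against MYH11 the excess was 1.17 in uninephrectomized dogs (exact p = 0.00794, adjusted p = 0.0190) and 1.19 in sham dogs (exact p = 0.0159, adjusted p = 0.0317). All of these tests exchange arrays freely, and which uninephrectomized arrays share a dog is not known. With the sham arrays paired by number, an alternative chosen after seeing the data, TAGLN exceeded both genes in 5 of 5 pairs (exact p = 0.0625, the smallest that 5 pairs allow), so the sham calls are lost. For ACTA2 against MYH11 the values were -0.22 in uninephrectomized and -0.33 in sham dogs (exact adjusted p = 0.200 for both). No pair with CNN1 was read, since its ventricular values of 2.57 to 2.91 lay close to the array medians and limit the size of its own difference.

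Between uninephrectomized and sham dogs none of the 4 genes was called in the atrium, and their arrays overlapped. ACTA2 differed by 0.21 ± 0.26, which as a fold has a 95% confidence interval from 0.79 to 1.68. MYH11 differed by 0.51 ± 0.33, which is 1.42-fold (0.88 to 2.30), CNN1 by 0.25 ± 0.25 (0.83 to 1.71) and TAGLN by -0.09 ± 0.30 (0.61 to 1.44). From high to low among 11423 genes these differences ranked 1148 for ACTA2, 200 for MYH11, 842 for CNN1 and 8809 for TAGLN. Their adjusted p-values in limma lay between 0.801 and 0.975, and exact two-sided permutation gave p = 0.643, 0.270, 0.532 and 0.849 in the same order. Of all 30047 probe sets 0 were called and 6.69% had an unadjusted p under 0.05, as had 1 of the 9 probe sets here. That one was the third MYH11 probe set, a dim one (0.27 ± 0.12, unadjusted p = 0.0340, adjusted p = 0.730).

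The atrial values of the brightest probe sets depended on single arrays. Uninephrectomized atrial array 4 was the highest of the 20 arrays for the brightest probe set of each of the 4 genes. It also had the largest 3' gap of the 20 arrays, at 4.45. Without it the differences were -0.08 ± 0.20 for ACTA2, 0.17 ± 0.26 for MYH11, 0.01 ± 0.21 for CNN1 and -0.26 ± 0.30 for TAGLN. Uninephrectomized atrial array 1 was the lowest of the 10 atrial arrays for TAGLN, ACTA2 and CNN1, with a 3' gap of 3.57, and without it TAGLN differed by 0.23 ± 0.23. With the 3' gap as a covariate the atrial differences were 0.22 ± 0.27 for ACTA2, 0.56 ± 0.35 for MYH11, 0.34 ± 0.25 for CNN1 and 0.02 ± 0.29 for TAGLN. No such fit gave a call for any of these probe sets. The second MYH11 probe set ranged from 0.53 to 1.16 over arrays left out and was not called either.

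In the ventricle TAGLN differed by -0.31 ± 0.30 between uninephrectomized and sham dogs (0.52 to 1.24 as a fold) and ACTA2 by -0.16 ± 0.26 (0.62 to 1.31). MYH11 differed by 0.26 ± 0.33 (0.74 to 1.94) and CNN1 by 0.05 ± 0.25 (0.72 to 1.49). Adjusted p-values lay between 0.858 and 0.985, and the exact permutation p was 0.143 for TAGLN, 0.484 for ACTA2, 0.389 for MYH11 and 0.476 for CNN1. Limma called 0 of 30047 probe sets here, and 6.67% passed 0.05 unadjusted, 0 of the 9 probe sets among them. The surgery effect in the atrium minus that in the ventricle was 0.22 ± 0.42 for TAGLN, 0.36 ± 0.37 for ACTA2, 0.25 ± 0.47 for MYH11 and 0.20 ± 0.35 for CNN1. None was called (adjusted p = 1.00 each), nor was any of the 30047 probe sets, of which 2.97% passed 0.05 unadjusted. The chamber differences of uninephrectomized and sham dogs were thus not shown to differ.

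The 4 genes varied widely between arrays of one group. The residual SD of the brightest probe sets, pooled over the groups, was 0.50 for TAGLN, 0.44 for ACTA2, 0.56 for MYH11 and 0.42 for CNN1. These values exceed those of 90.4% to 95.4% of all tested probe sets. The spread was widest in uninephrectomized atria, where the SD was 0.81 for TAGLN, 0.68 for ACTA2, 0.79 for MYH11 and 0.70 for CNN1. It was narrowest in uninephrectomized ventricles for TAGLN, ACTA2 and MYH11, at 0.15, 0.22 and 0.26.

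ACTA2 and MYH11 deviated together from array to array. Over 20 arrays the deviations from the group means had a Pearson correlation of 0.876 (permutation within groups, p = 0.00035, adjusted p = 0.0035 over 10 relations) and a Spearman correlation of 0.808 (p = 0.00042, adjusted p = 0.0042). Pearson's r was 0.761 without the 2 arrays farthest from the ACTA2 median, 0.901 within the atria and 0.826 within the ventricles. TAGLN and ACTA2 had a Pearson correlation of 0.603 (permutation p = 0.0592, adjusted p = 0.148) and a Spearman correlation of 0.653 (p = 0.00981, adjusted p = 0.0490). That Pearson correlation was 0.359 without the 2 farthest arrays, so the value over 20 arrays rests on them. It was 0.553 within the atria and 0.772 within the ventricles. TAGLN and CNN1 had a Pearson correlation of 0.687 (permutation p = 0.0269, adjusted p = 0.135) and a Spearman correlation of 0.511 (adjusted p = 0.173), with 0.788 within the atria and -0.04 within the ventricles. The remaining pairs of genes had Pearson correlations between 0.524 and 0.543 with permutation adjusted p from 0.148 to 0.161. Of these, TAGLN with MYH11 had 0.410 within the atria and 0.865 within the ventricles. CNN1 had 0.657 with ACTA2 and 0.654 with MYH11 within the atria, and 0.012 and 0.182 within the ventricles. With the 3' gap, Pearson correlations over the 20 arrays were 0.348 for TAGLN, 0.071 for ACTA2, 0.133 for MYH11 and 0.339 for CNN1 (permutation adjusted p from 0.268 to 0.818). Within the atria they were 0.576, 0.381, 0.361 and 0.579 in the same order, and within the ventricles 0.052, -0.32, -0.12 and -0.17. Without the 2 arrays farthest from the median they were 0.106, -0.13, -0.43 and 0.304, so the sign was not stable for ACTA2 and MYH11.

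**Figure D3:**
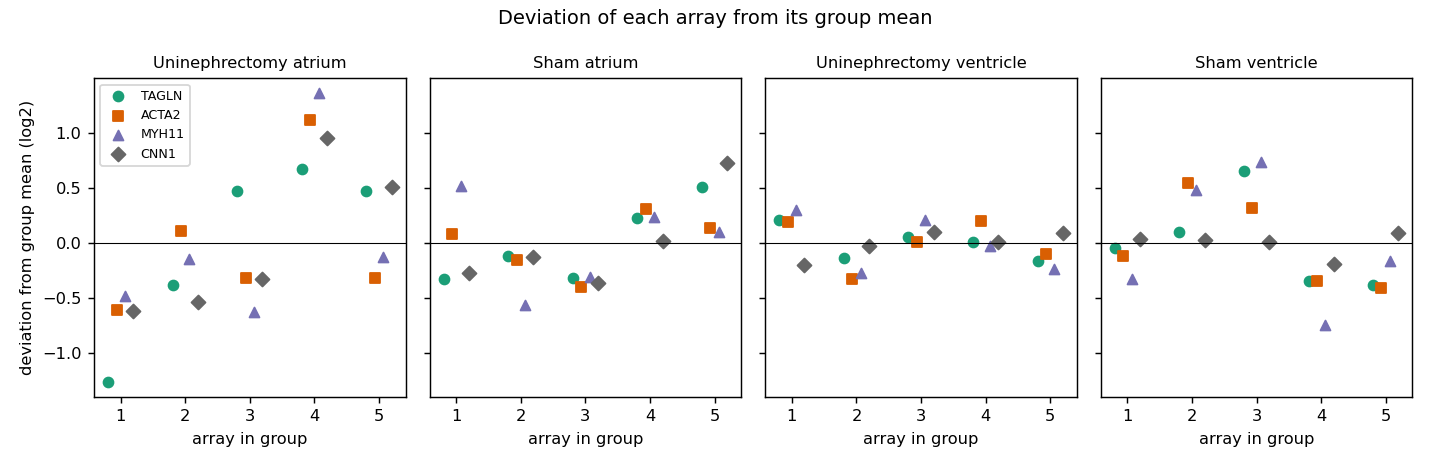
Deviation of each array from its group mean in log2 units on the vertical axis, by array in the group, for the brightest probe set of TAGLN, ACTA2, MYH11 and CNN1. In uninephrectomized atria all 4 genes are high on array 4 and low on array 1, and in sham ventricles ACTA2 and MYH11 are high on arrays 2 and 3.

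The genes whose deviations were most like the mean deviation of the 4 genes, by Pearson correlation over the 20 arrays among 11419 genes, were CAP1 (0.822), ANGPTL1 (0.815), INO80B (0.800), LOC491883 (0.798) and CALD1 (0.780). They were followed by CAMK1G (0.779), FLNA (0.762), CCL25 (0.751), MCAM (0.742) and PHYHIPL (0.742). CAP1 is an actin-binding protein, CALD1 is caldesmon, which binds actin and myosin, and FLNA is filamin A, which crosslinks actin. INO80B, CAMK1G and CCL25 were dim, with means of 1.95, 1.89 and 2.24. Taken within the atria alone, 4 of these 10 were again among the 10 most alike, and within the ventricles alone 0 were. The mean deviation of the 4 genes was largest on uninephrectomized atrial arrays 4 (1.03) and 1 (-0.74). How far the ranking rests on these arrays was not tested. Whether actin-related genes are more frequent among these 10 than among all genes was not tested either.

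The other contractile and thin filament genes were mixed between the chambers. In uninephrectomized dogs 6 of 19 tested genes were called higher in the atrium and 3 lower, with a median difference of -0.05. Of all genes, each at its brightest probe set, 16.2% were called higher and 13.7% lower, with a median of -0.02. In sham dogs 5 of 19 were called higher and 2 lower, with a median of 0.09, where 12% of all genes were called higher and 10.8% lower, with a median of -0.01.

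MYL9, the regulatory light chain of smooth muscle myosin, averaged 11.85 in the atrium and 9.69 in the ventricle of uninephrectomized dogs (2.16 ± 0.18, adjusted p = 4.93e-08). In sham dogs MYL9 stood at 11.73 in the atrium and 9.70 in the ventricle (2.03 ± 0.18, adjusted p = 1.47e-07). MYL6, the essential light chain of smooth and nonmuscle myosin, was higher by 0.89 ± 0.09 in uninephrectomized and 0.72 ± 0.09 in sham dogs. The tropomyosin gene TPM2 was higher by 1.80 ± 0.40 and 1.26 ± 0.40 in that order, the LIM protein gene PDLIM7 by 0.82 ± 0.18 and 1.02 ± 0.18, and CALD1 by 0.58 ± 0.11 and 0.34 ± 0.11. FLNA was called in uninephrectomized dogs (0.90 ± 0.26, adjusted p = 0.0132) and not in sham dogs (0.65 ± 0.26, adjusted p = 0.0810).

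In the other direction stood SMTN, the smooth muscle actin-binding protein smoothelin, which averaged 7.20 in the atrium and 8.32 in the ventricle of uninephrectomized dogs (-1.12 ± 0.28, adjusted p = 0.00621). In sham dogs SMTN stood at 7.06 in the atrium and 8.08 in the ventricle (-1.01 ± 0.28, adjusted p = 0.0150), and 1 of its 3 probe sets was called lower. Of the remaining smooth muscle markers, MYLK, the myosin light chain kinase, differed by 0.60 ± 0.35 in uninephrectomized and 0.39 ± 0.35 in sham dogs and was not called. The intermediate filament gene DES, also made by cardiomyocytes, differed by -0.16 ± 0.13 and -0.31 ± 0.13 and was not called. LMOD1 was dim and had lower atrial means. It stood at 2.31 in the atrium and 2.53 in the ventricle of uninephrectomized dogs, and at 2.40 and 2.53 in sham dogs.

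Among genes of contraction signalling and relaxation, 5 of 15 were called higher and 1 lower in the atrium of uninephrectomized dogs (all genes 16.2% and 13.7%), and 3 higher and 1 lower in sham dogs (all genes 12% and 10.8%), so that most of these counts were near the shares of all genes. EDNRA, the endothelin receptor of vascular smooth muscle, was higher in the atrium by 1.26 ± 0.09 in uninephrectomized dogs (adjusted p = 1.52e-08) and by 0.99 ± 0.09 in sham dogs (adjusted p = 4.44e-07). ITPR1, a calcium release channel, was higher by 0.90 ± 0.14 in uninephrectomized and 0.83 ± 0.14 in sham dogs. PPP1R12A, the targeting subunit of myosin phosphatase, was higher by 1.24 ± 0.26 and 0.79 ± 0.26. GUCY1A1, a subunit of the nitric oxide receptor, was lower, at -0.50 ± 0.15 and -0.45 ± 0.15 (adjusted p = 0.0146 and 0.0345).

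Of 12 tested transcription regulators of smooth muscle, 4 were called higher and 2 lower in the atrium of uninephrectomized dogs, and 3 higher and 1 lower in sham dogs. The lower counts were about the 13.7% and 10.8% of all genes called lower, beside 16.2% and 12% called higher. SRF, the serum response factor itself, averaged 7.33 in the atrium and 7.16 in the ventricle of uninephrectomized dogs and 7.16 and 6.91 in sham dogs, and was not called. MYOCD (myocardin) was dim, at 2.02 in the atrium and 2.18 in the ventricle of uninephrectomized dogs, and was not called. KLF4, a zinc finger factor that represses contractile genes in cultured smooth muscle, was higher by 0.81 ± 0.25 and 0.75 ± 0.25. Also called higher in uninephrectomized dogs were MRTFB (2.23 in the atrium and 1.92 in the ventricle), MEF2C (7.44 and 7.12) and PRRX1 (8.69 and 8.03). In sham dogs their means were 2.28 and 1.95, 7.68 and 7.14, and 8.69 and 8.27. FHL2, a LIM protein abundant in cardiomyocytes, was lower, at -2.42 ± 0.27 and -3.02 ± 0.27.

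**Figure D4:**
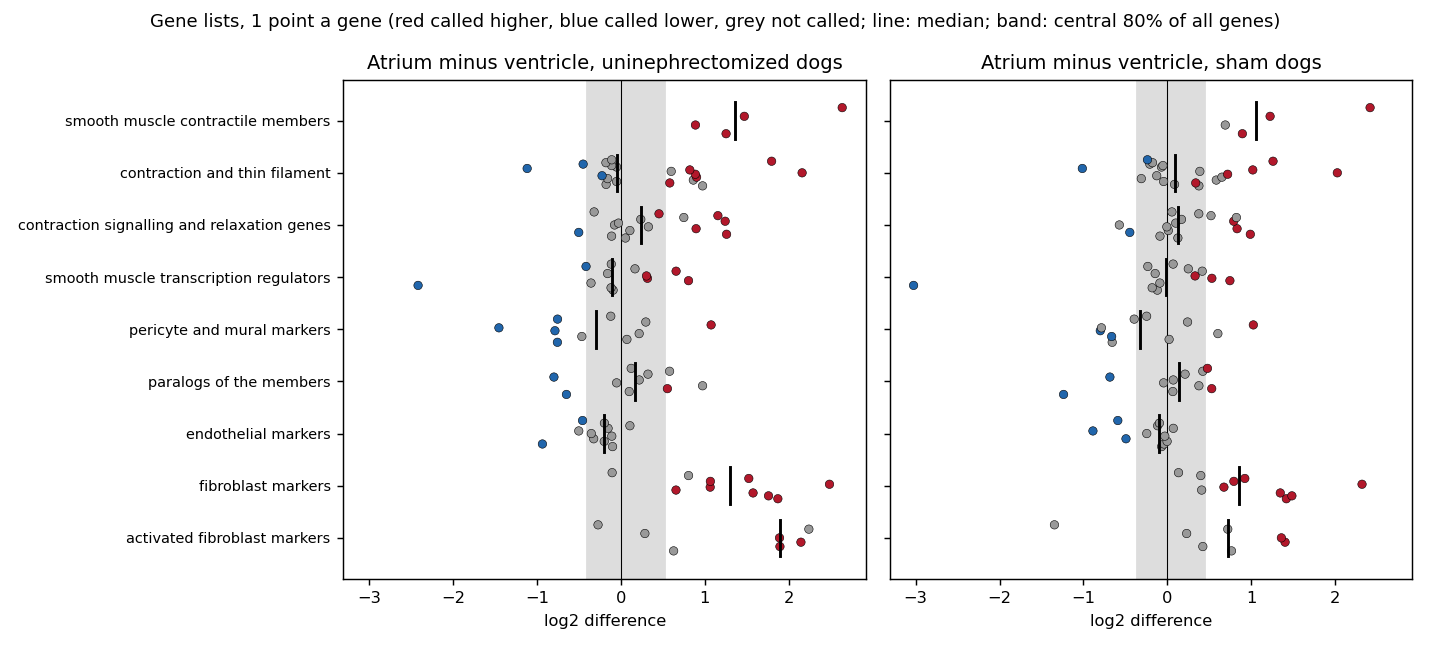
Log2 difference of atrium minus ventricle on the horizontal axes, 1 point per tested gene at its brightest probe set, for 9 gene lists in uninephrectomized and in sham dogs. Red points were called higher, blue points lower and grey points not called, the black line is the list median and the grey band runs from the lowest to the highest decile of all genes. The smooth muscle contractile genes lie to the right with medians of 1.36 and 1.06, as do the fibroblast markers at 1.30 and 0.86, whereas pericyte and endothelial markers have medians below 0.

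Markers of the other cell types in the tissue moved unequally between the chambers. Of 10 tested pericyte and mural markers, 1 was called higher and 4 lower in the atrium of uninephrectomized dogs. In sham dogs 1 was called higher and 2 lower. The medians were -0.29 and -0.32. Of all genes 16.2% were called higher and 13.7% lower in uninephrectomized dogs, and 12% and 10.8% in sham dogs. The counts called higher were thus near the shares of all genes. MCAM, an adhesion molecule of vascular smooth muscle and endothelium, was the one called higher, by 1.08 ± 0.17 in uninephrectomized and 1.03 ± 0.17 in sham dogs. RGS5, a pericyte marker, stood at -0.75 ± 0.16 (adjusted p = 0.0018) and -0.39 ± 0.16 (adjusted p = 0.0947). NOTCH3, CSPG4, ITGA8 and DLK1 lay below the filter. The mean log2 signal of the whole list of 14 ranged from 4.98 to 5.22 in uninephrectomized atria, 5.01 to 5.40 in sham atria, 5.21 to 5.36 in uninephrectomized ventricles and 5.19 to 5.37 in sham ventricles.

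Fibroblast markers were higher in the atrium, with 8 of 10 called higher in uninephrectomized dogs and 7 of 10 in sham dogs. None was called lower in either. Of all genes 16.2% were called higher and 13.7% lower in uninephrectomized dogs, and 12% and 10.8% in sham dogs. The matrix gene FBLN1 was higher by 2.49 ± 0.27 and 2.32 ± 0.27. The mean log2 signal of the 11 markers ranged from 8.61 to 9.20 in uninephrectomized atria, 8.04 to 8.97 in sham atria, 7.40 to 7.86 in uninephrectomized ventricles and 7.42 to 7.85 in sham ventricles. Activated fibroblast markers included FN1, higher by 1.89 ± 0.30 and 1.36 ± 0.30, and FAP, by 2.15 ± 0.38 and 1.40 ± 0.38. Of these markers 3 of 7 were called higher in uninephrectomized and 2 of 7 in sham dogs, beside the same 16.2% and 12%. Endothelial markers had 0 of 11 called higher and 2 lower in uninephrectomized dogs, and 0 higher and 3 lower in sham dogs, beside 13.7% and 10.8% of all genes called lower. VWF stood at -0.46 ± 0.08 and -0.59 ± 0.08. The part of fibroblast, pericyte or endothelial content in the chamber differences of TAGLN, ACTA2, MYH11 and CNN1 was not tested.

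On uninephrectomized atrial array 4, where the 4 genes were highest, the fibroblast list averaged 8.94 and ranked 2 of the 5 uninephrectomized atria, and the activated fibroblast list averaged 5.81 and also ranked 2. The highest array of these lists was uninephrectomized atrial array 2, at 9.20 and 7.47, where ACTA2 stood at 11.46 and TAGLN at 10.68. Array 4 also ranked 1 of its group for the other contractile genes (7.35), the paralogs (7.82), cardiomyocyte markers (12.83) and endothelial markers (5.56). The part of any of these lists in the spread of the 4 genes was not tested.

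Between uninephrectomized and sham dogs 0 genes of the contractile, signalling, regulator, pericyte, fibroblast and endothelial lists were called in either chamber. In the atrium the median difference was 0.23 for the 4 contractile markers, 0.12 for the 19 other contractile genes, 0.11 for signalling genes, -0.01 for regulators, -0.04 for pericyte, -0.02 for endothelial, 0.34 for fibroblast and 0.63 for activated fibroblast markers, beside -0.01 for all genes. The 4 values behind 0.23 were 0.17 or less without uninephrectomized atrial array 4. In the ventricle the medians were -0.05, -0.01, 0.04, -0.03, -0.06, 0.06, 0.09 and 0.00 in the same order, beside -0.01 for all genes.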

How the data were processed

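The deposited values were log2 probe set signals of 20 arrays, from 0.43 to 15.0, used as deposited. The authors' summarization and normalization steps are not given in the sources used here. Per the labels' protocols, RNA was extracted with Trizol and 100 ng was labelled with the IVT Express kit. Symbols came from the platform annotation, where 29264 probe sets carry a single symbol, 439 carry more than one and 13332 are not listed. After removal of 111 control probe sets, the 30% with the lowest mean (under 1.87) were not tested. Group means were fitted to the 20 arrays together, without a block, by lmFit and eBayes of limma 3.58.1 (R 4.3.3). Tests were two-sided and the code was tested on simulated data. A gene outside the 4 markers was represented by its brightest probe set. Of 157 listed genes 142 had a probe set.

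The 4 markers and the lists were chosen with earlier results of these data known. Named list genes are those with the smallest p, called ones first, up to 6 a list, beside the smooth muscle markers, paralogs and genes most like the markers. SRF, MYOCD, DES, MYLK and LMOD1 were added as textbook members. P-values in limma set a difference against the spread between arrays, pooled over the 4 groups. The number of arrays limits precision. As an alternative to the main fits, sham arrays of equal number were taken as paired across chambers. The correlations of their deviations over all tested probe sets were 0.463, 0.226, 0.373, 0.295 and 0.209. In uninephrectomized dogs they ranged from -0.24 to 0.115, so equal numbers gave no sign of a shared dog. A fixed block by number was still run there as an alternative. With 6 dogs per operation and 5 samples of each chamber, some dogs must have given both. Tests that exchange uninephrectomized arrays freely leave out this unknown pairing. The sham pairing comes from the data, not the labels. Uninephrectomized and sham arrays of equal number, from different dogs, had correlations of -0.18 to 0.353 in the atrium and -0.11 to 0.14 in the ventricle. The highest of these exceeded some of the sham values, so the pairing is not established. Alternatives were each array left out, other scalings, filters, array weights, the 3' gap as covariate, a variance trend, fewer groups and replicate blocks.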

Additional observations from a re-analysis of the deposited data

Results flagged for a closer look

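Of 40 sets of 5 arrays (10 probe sets in 4 groups), 3 had an array standing apart from the other 4, where chance gives about 1 in 20. The brightest MYH11 probe set gave 10.88 on uninephrectomized atrial array 4, and the next highest atrium of that group gave 9.39. The third MYH11 probe set gave 2.08 on sham atrial array 2, below the next at 2.38, and the dim CNN1 probe set gave 1.96 on sham ventricular array 5, above the next at 1.77.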

How the results depend on the processing

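The calls of TAGLN in both chamber comparisons, of ACTA2 and MYH11 in uninephrectomized dogs, and the absence of a surgery call for any of the 4 genes at its brightest probe set, held under all alternatives run. CNN1 in sham dogs (0.69) was also called with the lowest 50% left out, with only the groups compared, and with a fixed or random replicate block (adjusted p = 0.0455, 0.0249, 0.0218 and 0.0403). It was not called with arrays shifted to one median, quantile normalization, no filter, array weights, the 3' gap as covariate, a variance trend or the mean of its probe sets (adjusted p from 0.0506 to 0.126, with 0.34 for that mean). Leaving out arrays gave 0.51 to 0.78. The difference was called without sham atrial array 3 (adjusted p = 0.0424). It was also called without uninephrectomized atrial array 1, 2, 4 or 5 (adjusted p = 0.0434, 0.0478, 0.0178 and 0.0496). Those arrays are not in the comparison and only add to the shared spread, so the difference stayed at 0.69. CNN1 in uninephrectomized dogs was 0.69 and not called with the 3' gap as covariate, and 0.47 and called as the mean of its probe sets. MYH11 in sham dogs was 0.53 and not called as the mean of its probe sets. ACTA2 in sham dogs was 0.79 to 1.03 over arrays left out and lost its call once. Uncalled surgery differences changed sign. TAGLN in the atrium was 0.02 with the 3' gap as covariate and -0.26 to 0.23 over arrays left out. ACTA2 in the atrium was -0.076 to 0.36. The atrial minus ventricular effect was -0.067 for TAGLN as the mean of its probe sets and -0.021 for MYH11 with array weights, and over arrays left out -0.10 to 0.43 for MYH11 and -0.041 to 0.38 for CNN1. In the ventricle the third TAGLN probe set was -0.012 with quantile normalization and the second 0.050 with the 3' gap as covariate. For the second and the third TAGLN probe set and the dimmest MYH11 probe set, leaving out arrays gave -0.47 to 0.24, -0.57 to 0.31 and -0.028 to 0.043 in the atrium, -0.18 to 0.035, -0.077 to 0.086 and -0.019 to 0.112 in the ventricle, and -0.39 to 0.32, -0.58 to 0.30 and -0.099 to 0.032 for atrial minus ventricular effects. Leaving out arrays gave 0 to 1 called probe sets for surgery in the atrium, 0 to 4 in the ventricle, 5244 to 6345 for the chambers in sham dogs and 7046 to 8433 in uninephrectomized dogs. The replicate block changed no other call at a brightest probe set. With the fixed block the second MYH11 probe set lost its call in uninephrectomized dogs (adjusted p = 0.0558). The causes were not tested. Dim signals limit CNN1 and the dim MYH11 probe sets.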

Other observations

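Of 6 adipocyte markers 1 was called higher in the atrium of uninephrectomized dogs, near the 16.2% of all genes. In sham dogs 3 of 6 were called higher, against 12% of all genes. In each comparison 4 of 6 differences were positive, and the lowest were -0.73 and -0.60 in the same order. ADIPOQ, the adipocyte hormone adiponectin, differed by 3.48 ± 0.83 in uninephrectomized and 3.83 ± 0.83 in sham dogs (adjusted p = 0.00416 and 0.00264 in limma). Macrophage and monocyte markers had 1 of 8 called higher in uninephrectomized and 0 of 8 in sham dogs, where 16.2% and 12% of all genes were called higher. The Schwann cell marker CDH19 was higher in the atrium by 0.48 ± 0.11 and 0.57 ± 0.11, at dim signals. Of mesothelial markers only WT1 was tested, and it was not called. Cardiomyocyte markers, which include the chamber-specific light chains, had 3 of 14 called higher and 7 lower in both. Of all genes 16.2% were called higher and 13.7% lower in uninephrectomized dogs, and 12% and 10.8% in sham dogs.

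Within the 10 atria alone, the genes most like the mean deviation of the 4 smooth muscle genes were ANGPTL1 (Pearson correlation 0.942), ARID1A (0.929) and TCEA1 (0.929). Within the 10 ventricles alone they were RIC8A (0.966), ASB12 (0.938) and RELN (0.929). These are descriptions over 10 arrays of the same tissue.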
